A study of Homo sapiens with 12 samples.

Results

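Of the 2364 differential ac4C peaks in the authors' deposited table, 503 were classed there as lying in a 3' untranslated region (3' UTR), and these are described here whatever number of motif sites they held. They lay in 470 genes, 469 of them annotated as protein coding. The table also held 1406 coding-sequence peaks, 365 in other exons and 88 in 5' UTRs. The study used DLD1, an epithelial colorectal cancer cell line, at passage 5, and compared cells carrying a control hairpin (shNC) with cells carrying a hairpin against the acetyltransferase NAT10 (shNAT10). In acRIP-seq, RNA fragments of 100 to 200 nt are pulled down with an antibody against ac4C and sequenced beside an input that is not pulled down. Input and pulled-down libraries of both hairpins had 3 replicates each, 12 libraries in all. Per-library values were used for the 6 inputs, and the columns headed sh were taken as shNAT10 by elimination. Nothing in the labels says how many hairpin sequences or clones were used, or whether replicates were separate cultures, so spread is that between these samples.

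The 3' UTR is the part of a messenger RNA after the stop codon. Proteins and microRNAs that bind there set how long a message lasts, where in the cell it lies and how often it is translated. N4-acetylcytidine, written ac4C, is a cytidine carrying an acetyl group; NAT10 places it on ribosomal and transfer RNA, and it has been reported on messenger RNA, where its extent is debated. A repeat of a C followed by any other pair of bases, the CXX motif, has been linked to ac4C in messages.

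For each peak the authors' deposited table gave a fold enrichment of the peak, a log2 fold change from a differential test between the hairpins, the false discovery rate (FDR) of that test, and the number of CXX sites, each 4 repeats in a row of C and any 2 bases (12 nt) on the strand of the gene. All peak values below are these deposited values, with no error or replicate number, and no test was run on them. Which hairpin stood in the numerator of the log2 change was not stated. A peak is called negative or positive only by the sign of its deposited change, not as lost or gained on knockdown.

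Sequence could be read at 1 CXX site of a 3' UTR peak, in PRC1, whose protein bundles microtubules at the spindle midzone, because the site fell in the promoter window of the antisense gene PRC1-AS1 in RefSeq GRCh38.p14. It is shown on the PRC1 strand, 5′ to 3′ (chr15:90966389-90966418, minus strand, GRCh38), with the 4 C of the repeat in capitals. Beside it stands a coding site of SLC1A5, a glutamine transporter that also has a 3' UTR peak (chr19:46787478-46787507, minus strand), to show the repeat in a coding stretch.
PRC1, 3' UTR: gcctgagttCttCtaCccCcgcagttgcca
SLC1A5, coding: gcagccgggCgcCgcCtcCgccgccatcaa
Over all classes, 25 of 25 readable sites in peaks of 1 block had C in steps of 3 bases, and 38 of 42 with peaks of several blocks included. The same letters began at 1.51% of positions on the gene strand of the 35116 RefSeq promoter windows, and 74.9% of windows held them at least once on that strand (90.3% on either strand). These matches could overlap one another, whereas listed sites in 1-block 3' UTR and coding peaks were at least 12 nt apart. Promoters are also unlike 3' UTRs, so these shares are no background for the site numbers of the peaks. A match describes letters and does not show that a cytidine was acetylated.

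The peaks were short and mostly uninterrupted. Lengths ran from 118 to 839 nt with a median of 210, and 434 peaks (86.3%) were 1 unbroken block, against 32.2% of coding peaks. Of the 434, 160 (36.9%) were 179 to 181 nt long. The 5 longest lay in NFIA, a transcription factor (839 nt), PTBP3, an RNA-binding protein of the PTB family (690 nt), NUCKS1, a chromatin protein (688 nt), YWHAG, the 14-3-3 gamma protein (631 nt), and FOXA1, a transcription factor that opens chromatin in epithelia (629 nt).

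Peak positions were measured against RefSeq GRCh38.p14 gene ends. Stop codons and exons were not used, so these distances do not test the class label. For the 431 peaks of 1 block whose gene matched, the peak centre lay a median of 1282.5 nt before the gene's 3' end (quartiles 595 and 2754 nt). Within 1000 nt of the end lay 175 peaks, and within 500 nt 82 (19.0%). A further 46 lay more than 5000 nt before the end, among them both peaks of SRPRA, a signal recognition particle receptor subunit, about 27259 and 27738 nt upstream. In EXOC3, COG8 and SUN1 the peak lay past the RefSeq end. Sources used here do not name the annotation release behind the authors' classes. Negative peaks had a median distance of 1136.5 nt (n = 245) and positive peaks 1572.75 nt (n = 186). Of the 82 peaks within 500 nt, 57 were negative and 25 positive, against 245 and 186 of all 431. Of the 46 more than 5000 nt before the end, 24 were negative and 22 positive. Whether sign differs with distance was not tested.

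**Figure D1:**
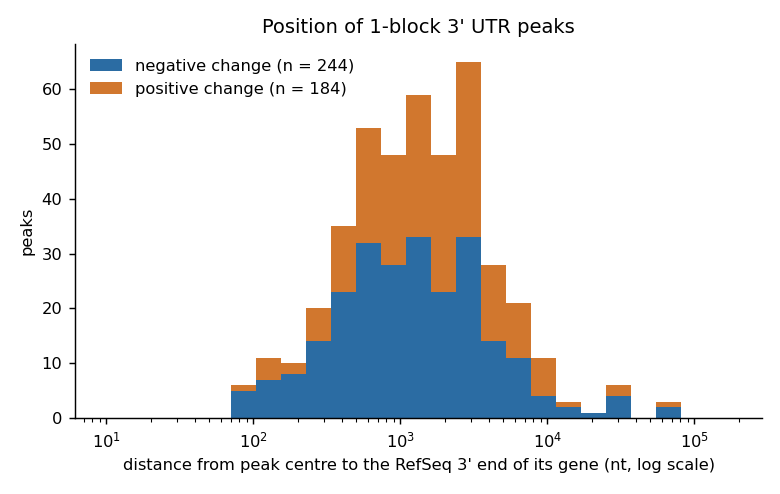
Number of 1-block 3' UTR peaks (vertical axis) by distance in nt from the peak centre to the RefSeq 3' end of the gene (horizontal log axis), stacked by the sign of the deposited log2 change: 244 negative peaks and 184 positive. The 3 peaks past the end are not drawn; the median is 1282.5 nt and peaks of both signs spread over the whole range.

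Many peaks could not be given to 1 gene. In RefSeq, 100 of the 503 (19.9%) lay in at least 2 genes, and 63 of those in at least 2 protein-coding genes. On the same strand, 32 peaks formed 16 overlapping pairs, 13 of them between different gene models such as IGF2 and INS-IGF2, TXNDC5 and BLOC1S5-TXNDC5, or WBP1 and INO80B-WBP1. The members of each pair had the same sign, and counting 1 peak per pair leaves 487. On opposite strands, 5 pairs overlapped, each with changes of the same sign and like size. The peak of TUBGCP4, a gamma-tubulin complex subunit, had a deposited fold of 656 and a change of 8.13, and that of the facing gene TP53BP1, a DNA break response protein, had 656 and 8.14. COG1 and FAM104A had changes of 5.17 and 5.07 but folds of 48.2 and 7.18. RER1 and PEX10 had changes of -2.46 and -2.66 with folds of 7.58 and 11.2, and SARM1 and SLC46A1 -5.08 and -5.18 with folds of 38 and 41.9. Whether such a pair is 1 signal listed under 2 genes or a signal on each strand cannot be told apart here.

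Deposited changes took both signs. Of the 503, 296 were negative (58.8%, exact 95% interval 54.4% to 63.2%, counting error only), against 61.7% of all 2364 peaks and 63.1% of coding peaks. The median negative change was -4.44 and the median positive change 6.17, over a range from -9.66 to 14.1, and 8 peaks lay within 1 of 0. FDR reached 0.0501, and 377 peaks were under 0.01.

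Deposited fold was higher in 3' UTRs than in the other classes by its median. It was 15.8 in 3' UTR peaks (quartiles 6.44 and 65.1), 9.78 in coding, 8.94 in other exon and 9.79 in 5' UTR peaks. A fold of at least 100 was reached by 94 peaks (18.7%), against 11.1% of all peaks and 8.18% of coding peaks. Positive 3' UTR peaks had a median fold of 38.2 and negative ones 11.2. The sign moved with the fold: 71 of 89 peaks under a fold of 5 were negative (79.8%), 66.5% from 5 to 20, 51.1% from 20 to 100, and 33 of 94 (35.1%) at 100 or more. Coding peaks ran the same course, at 73.6%, 65.9%, 53.3% and 37.4%, and the exact intervals of both classes overlapped in every range. Host genes of peaks with a fold of at least 100 had a median input level of 4.20 FPKM, and those of peaks under 5 had 10.5; FPKM is a fragment number divided by gene length and library size. The Spearman correlation of fold with the host's mean input was -0.15 over the 503 3' UTR peaks, and it is given as a description because peaks share hosts and libraries. The part of low input in these folds was not tested.

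**Figure D2:**
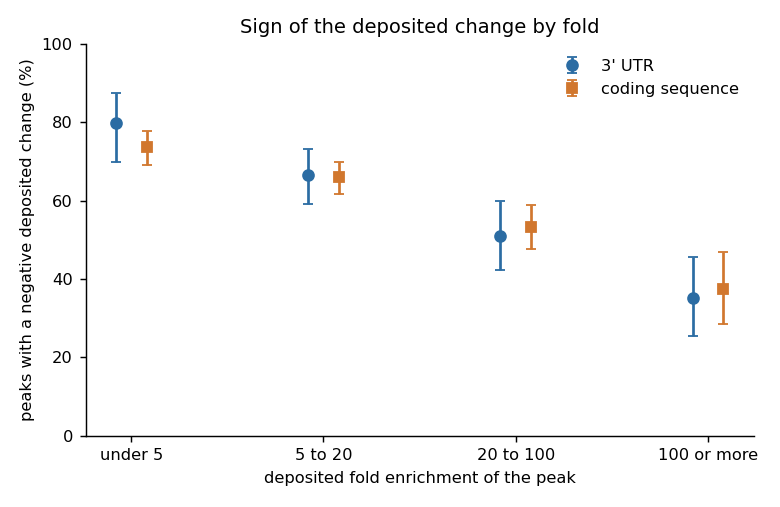
Percent of peaks with a negative deposited log2 change (vertical axis) in 4 ranges of deposited fold enrichment (horizontal axis), for 3' UTR peaks (circles) and coding-sequence peaks (squares); bars are exact 95% binomial intervals, which cover counting error only. The 3' UTR share falls from 79.8% under a fold of 5 to 35.1% at 100 or more, and the coding share from 73.6% to 37.4%.

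The 4 highest folds lay in IPO9, SET, NAV1 and RPS29. IPO9, an importin that carries histones and actin into the nucleus, had the highest in the whole table (2860, change -8.21, FDR 0.0295; chr1:201877858-201878068). SET, a histone chaperone and inhibitor of protein phosphatase PP2A, followed with 2650 and a change of 13 (FDR 3.98e-25; chr9:128693950-128694877, 2 blocks). NAV1, a microtubule-associated guidance protein, had 2550 and 10.2 (chr1:201820464-201820644). RPS29, a protein of the small ribosomal subunit, had 2120 and -8.80 (chr14:49572001-49572240). A high fold did not go with a low FDR in each case: for HNRNPA3, an RNA-binding splicing protein (1250, change 9.29), it was 0.0195, and for the chromatin remodeller ATRX (966, change 7.8) it was 0.0380. MYH11, the smooth-muscle myosin heavy chain (1740, change 9.61), has its peak where RefSeq also places NDE1, and PGPEP1, a peptidase, had 1390 and 9.32. SERPING1, the C1 inhibitor of the complement cascade, had 903 and 8.60 with 3 CXX sites, although the gene was listed at 0 in all 6 inputs.

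The 10 most negative peaks included those of EFTUD2 and MED19. EFTUD2, a GTPase of the U5 spliceosomal particle, had a change of -9.02 and 5 CXX sites (FDR 3.98e-33; chr17:44851082-44851812), and MED19, a Mediator subunit, had -8.25 and no site (chr11:57704310-57704488). AC093668.1 had the lowest change, -9.66, and BTBD1 followed with -9.19. SLC30A1, a zinc exporter, had -7.73, and TMED8, a member of the p24 cargo family by name, -7.76. At the other end, TBC1D14, a regulator of autophagy, had the highest change, 14.1 (FDR 5.01e-45; chr4:7030670-7030819). USP22, the deubiquitinase of the SAGA complex, had 11.9, MYO5C, a myosin motor of secretory traffic, 11, CPD, carboxypeptidase D, 10.8, and SNX6, a sorting nexin of retromer, 10.3. ASB14 had 11.3 at a place that RefSeq also gives to APPL1, and PDZD11 had 10.5. Of the 10 most positive peaks, 4 held a CXX site: USP22, AL713999.1, SNX6 and NAV1.

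**Figure D3:**
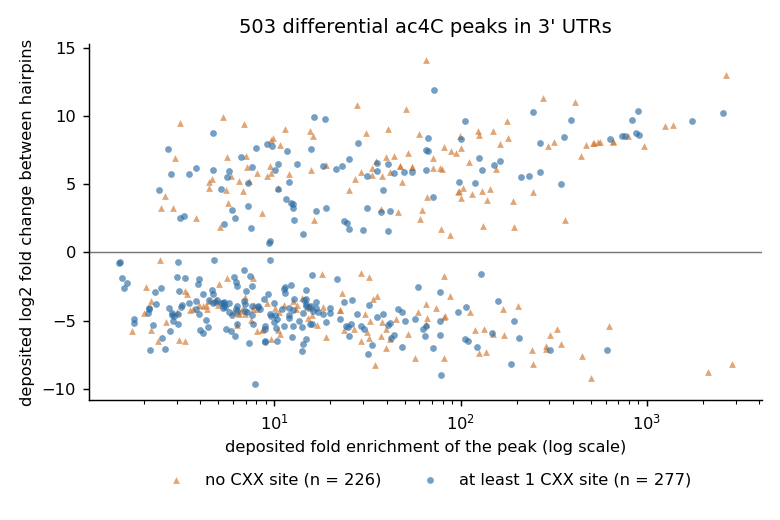
Deposited log2 fold change between the hairpins (vertical axis, numerator not stated) against deposited fold enrichment (horizontal log axis) for each of the 503 3' UTR peaks; circles are the 277 peaks with at least 1 CXX site and triangles the 226 without. Few peaks lie within 1 of 0, and above a fold of 100 positive peaks outnumber negative ones by 61 to 33.

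CXX sites were sparser in 3' UTR peaks than in the other classes. At least 1 site was listed for 277 of 503 (55.1%, exact 95% interval 50.6% to 59.5%), against 62.6% of all peaks, 64.6% of coding peaks and 78.4% of 5' UTR peaks. Per 1000 nt there were 4.18 sites in 3' UTR, 6.03 in coding and 7.85 in 5' UTR peaks. Negative 3' UTR peaks held 4.74 per 1000 nt and positive ones 3.34. Of the peaks with a site 66.1% were negative (183 of 277), and of those without 50% (113 of 226). Coding peaks showed a like gap, 68.2% against 53.8%. Peaks with a site also had a lower median fold, 12.2 against 33.2, so the share of negative peaks is also given within fold ranges. Within fold ranges the negative share with and without a site was 84.5% and 71.0% under 5, 71.7% and 56.9% from 5 to 20, 57.1% and 45.8% from 20 to 100, and 33.3% and 36.2% at 100 or more.

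By number of sites, the negative share was 65.2% with 1 site (n = 132), 59.8% with 2 (n = 87), 77.4% with 3 (n = 31) and 78.9% with 4 (n = 19). All 6 peaks with 5 sites were negative; they include CABIN1, a calcineurin inhibitor (change -3.56), BIK, a BH3-only protein that promotes apoptosis (-6.69), and EFTUD2. The 2 peaks with 6 sites were positive, and they are the overlapping peaks of the kinase PAK6 (3.02) and of BUB1B-PAK6 (3.27), thus 1 place counted under 2 names. Sites within 1-block 3' UTR peaks were a multiple of 3 nt apart in 72 of 197 neighbouring pairs (36.5%), and in 269 of 462 (58.2%) within coding peaks. These include pairs exactly 12 nt apart, where sites abut and the spacing is a multiple of 3 by construction. Such pairs numbered 9 of the 197 and 59 of the 462. The median spacing was 45 nt in 3' UTR and 32 nt in coding peaks.

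More than 1 peak lay in the 3' UTR of 32 genes, with 3 in LMNB2, a nuclear lamin. In 12 of these genes the peaks were all negative, in 6 all positive, and in 14 they had both signs. Among 30 neighbouring pairs that did not overlap, 16 had the same sign and 14 opposite signs, with a median gap of 537 nt and 462 nt. Peaks of opposite sign could lie close together: in ATF7, a stress-responsive transcription factor, YWHAG, and ZBTB7A, a transcriptional repressor, they were 59 nt apart. YWHAG had -1.92 in the peak nearer the 5′ end and 1.59 in the one nearer the 3′ end, ATF7 -3.90 and 6.07, and ZBTB7A -6.74 and 8.76. RefSeq also places ATF7-NPFF and ATF7-AS1 at both ATF7 peaks. The folds of such a pair could differ widely, as in ZBTB7A, where they were 348 and 4.65.

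ALKBH5, the demethylase that removes m6A from RNA, had 6.97 (FDR 6.31e-24, 1 CXX site; chr17:18208732-18208911) and, 386 nt further toward the 3′ end, -5.04 (FDR 7.94e-09, 3 sites; chr17:18209298-18209507). ATP1B1, the beta subunit of the sodium pump, had 6.09 and then -8.15, the latter at a place that RefSeq also gives to NME7. RFWD3, a ubiquitin ligase of DNA repair, had -6.34 and then 9.96, and XPO1, the main nuclear export receptor, -4.38 and then 3.29. RefSeq also places USP34-DT at the XPO1 peak with 3.29. In 8 of the 14 pairs the peak nearer the 5′ end was the positive one.

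Genes whose 3' UTR peaks had 1 sign included CDKN1B, the cell cycle inhibitor p27, with 4.02 and 6.17 at 88 nt apart. RPS19, a ribosomal protein, had -3.48 and -3.83, TIMP3, a metalloproteinase inhibitor, -2.84 and -4.79, DDAH1, which degrades methylated arginine, 8.53 and 9.61, and SDC3, a syndecan, -4.60 and -5.95.

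**Figure D4:**
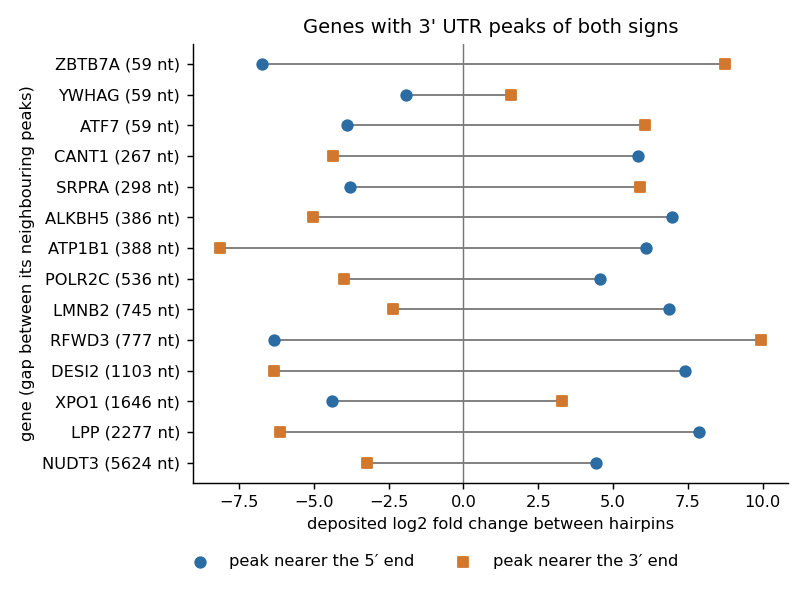
Deposited log2 fold change (horizontal axis) of the neighbouring 3' UTR peaks of opposite sign in 14 genes, ordered by the gap between the peaks in nt (in brackets, vertical axis); circles are the peak nearer the 5′ end and squares the one nearer the 3′ end. ATF7, YWHAG and ZBTB7A have peaks of opposite sign 59 nt apart; LMNB2 has a further peak that is not drawn.

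The 3' UTR could also differ in sign from the rest of its message. Peaks of another class lay in 87 host genes, and in 41 of them at least 1 had the opposite sign. Among 100 pairs of a 3' UTR peak and a coding peak of the same gene, 59 had the same sign. Of all peaks, 58.8% in 3' UTRs and 63.1% in coding sequence were negative, so unrelated signs would also agree in many pairs. Genes with several other peaks had more chances to show an opposite sign. Whether these numbers differ from those of unrelated signs was not tested. ATRX had 7.8 in its 3' UTR and -6.29 in its coding sequence, and TUBGCP4 had 8.13 and -5.13. FANCA, a core protein of the Fanconi anaemia repair pathway, had 8.11 and -6.58. RefSeq also places ZNF276 at the 3' UTR peak of FANCA and TP53BP1 at that of TUBGCP4. Those peaks may therefore not belong to the named message. DNAJB1, an HSP40 co-chaperone, had 7.94 and -3.39, and MRPL42, a mitochondrial ribosomal protein, had 8.41 in its 3' UTR and -2.84 in its 5' UTR. These examples were picked by large fold, and other hosts ran the opposite way. CABIN1 had -3.56 in its 3' UTR and 5.29 in its coding sequence, and KPNA6 had -4.49 and 4.58. By contrast the signs in ACTG1, gamma-actin, were alike, at -1.91 and -1.86.

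Host genes of 3' UTR peaks were 3.68% of the 10517 genes tested in input (387), 4.75% of the tested protein-coding genes, and 6.72% of the tested genes in 18 gene lists (26). Nuclear transport, with 28 genes, had most hosts: 6 (5 of the 25 tested, 20%), with 5 negative peaks and 2 positive. They were IPO9, IPO7 (7.29), KPNB1, the importin beta that drives classical import (-3.97), XPO4 (-4.78), KPNA6 (-4.49) and XPO1. Ribosomal proteins (79 genes) had 3 peaks, all negative, in RPS29 and RPS19, although 17 of these genes had a peak of some class. Of 36 genes for binding and decay of 3' UTRs, 3 had a peak in their own 3' UTR: IGF2BP2, which stabilises messages (2.95), STAU1, which binds double-stranded RNA (-3.90), and KHSRP, which promotes decay of AU-rich messages (-1.28). The 25 RNA modification enzymes had ALKBH5 and YTHDF1, a reader of m6A (-7.42). Of 36 genes of the cell cycle, CDKN1B and PRC1 (4.67) had positive peaks only and CDK6, a G1 kinase, a negative one (-3.54).

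In the other lists, histones and their chaperones (29 genes) had SET and the histone variant H2AFV (-4.10), and chaperones (26 genes) had DNAJB1 and STIP1 (-2.78), which links HSP70 to HSP90. Wnt genes (28) had the receptor FZD7 (6.27) and the transcription factor TCF7L2 (5.77). Actin and junction genes (38) had ACTG1 and EZR, which ties actin to the membrane (-6.49), and receptors and ligands (38) had TGFA, a ligand of the EGF receptor (4.54). CDX2, an intestinal transcription factor, had -1.86. No 3' UTR peak was listed for the 20 cleavage and polyadenylation genes, of which 7 had a peak elsewhere, for the 13 microRNA pathway genes (5 elsewhere) or for the 28 ferroptosis and iron genes (1 elsewhere). At the share over protein-coding genes, lists this short would hold few hosts or none, so these zeros set no list apart.

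The input libraries gave the level of the host genes in the whole RNA, in which fewer cells with a message and less of it per cell cannot be told apart. Recovered fragments on genes were 2602658 to 2720102 in shNC and 1210569 to 1286366 in the shNAT10-labelled libraries, both lower bounds. NAT10 measured 1.24, 3.95 and 2.89 FPKM with shNC against 0, 28.1 and 31.4 in the shNAT10-labelled libraries, so 2 of those 3 lay above all shNC libraries, against the label. The difference did not pass (log2 1.48, SE 1.86, limma adjusted p = 0.754; exact two-sided permutation p = 0.4, smallest possible 0.1), and NAT10 had no deposited peak. Directions below are those of the labels. Of 12 epithelial and colorectal markers 9 had a mean of at least 1 FPKM, while CEACAM5 and CEACAM6 were at 0, and their summed level was 5094 to 5385 in shNC and 8127 to 8584 in the shNAT10-labelled libraries. Fibroblast and muscle markers (4 of 11 at 1 FPKM or more, PDGFRA at 0) summed to 6.63 to 14.6 and 28.0 to 77.2, leukocyte and endothelial markers to at most 2.29, and neural markers (1 of 6 at 1 FPKM or more) to 0.143 to 6.37 and 0. Of the fibroblast and muscle markers, MYH11 alone had 10.8, 6.98 and 6.63 FPKM in shNC, the last equal to the lowest shNC sum. In the shNAT10-labelled libraries MYH11 had 0, 4.64 and 13.6. The part of these shifts of the marker sums in the results was not tested.

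Host genes of 3' UTR peaks had a median mean level of 8.07 FPKM. Of 470, 181 were above 0 in all 6 inputs and 23 (4.89%) at 0 in all 6. The 23 carried 26 peaks, 19 negative and 7 positive, and 14 of these overlapped a peak of another gene model on the same strand. The host median was 4.44, 3.84 and 3.31 FPKM over the shNC libraries and 0.810, 0.728 and 1.07 over the shNAT10-labelled libraries. Fewer fragments were recovered for the shNAT10-labelled libraries, but these numbers are lower bounds. Levels of 1 host swung between replicates. This was counted only among hosts above 0 in at least 3 of the 6 inputs, which leaves out hosts with more zeros. Of 317 such hosts with at least 100 fragments in some shNC library, 51 (16.1%) were at 0 in another shNC library. In the shNAT10-labelled libraries the like number was 78 of 241 (32.4%). The like share over all genes was not computed, so these numbers do not set the hosts apart. Over all listed genes, 8340 to 8682 were above 0 in shNC libraries and 6348 to 8117 in the shNAT10-labelled libraries.

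No host gene passed in input. Of 387 hosts tested 0 had a limma adjusted p under 0.05 (smallest 0.720), against 0.19% of 10517 genes, or 20. At an unadjusted p under 0.05 there were 8, 1 higher and 7 lower in the shNAT10-labelled libraries, and over all genes the share was 3.7% (1.38% higher, 2.32% lower). Groups did not overlap for 15 higher and 37 lower hosts, 3.88% and 9.56% of those tested, against 2.89% and 6.72% of all genes. The median difference was -0.47 for hosts and -0.49 for all tested genes, on the log2(FPKM + 1) scale, which understates the change of low genes. The direction of these values rests on the scaling. Of the 387 hosts, 148 were higher and 239 lower, but 194 and 193 after quantile normalization (host median 0.0061) and 133 and 254 on the TPM scale (host median -0.80). Hosts with negative peaks only had a median of -0.37 (n = 219) and hosts with positive peaks only -0.63 (n = 154). Among 413 peaks with a tested host, 142 were negative with lower input, 99 negative with higher, 110 positive with lower and 62 positive with higher, and after quantile normalization these were 114, 127, 88 and 84. The Spearman correlation over those peaks was -0.07, a description over peaks that share hosts and libraries.

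TPRG1L, CBR1, ZFAND3 and RTCA were chosen by small unadjusted p among hosts lower in all shNAT10-labelled libraries, so their separation is no finding. TPRG1L had 19.1, 33.9 and 25.6 FPKM in shNC against 0.298, 0.553 and 0, without overlap (-4.39 on the log2 scale, SE 1.85), and its 3' UTR peak was positive (2.36, fold 365). CBR1, a carbonyl reductase, had 38.4, 32.3 and 27.0 against 0.294, 4.90 and 0.681, with a negative peak (-6.33). ZFAND3 had 30.8, 16.6 and 8.97 against 0, 0 and 0.207, also with a negative peak (-4.22), and RTCA, an RNA end cyclase, 34, 3.91 and 60.3 against 0, 0.220 and 2.75, with a positive one (8.30). Lower input thus stood beside peaks of either sign. The limma adjusted p was 0.754 for each of these 4 hosts.

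Among hosts higher in the shNAT10-labelled libraries, 5 were chosen for the smallest unadjusted p without overlap of the groups, so their separation is no finding. BCAP31, an endoplasmic reticulum membrane chaperone, had 1.24, 0.464 and 0.222 FPKM in shNC and 91.3, 211.6 and 4.77 with the other label (4.93 on the log2 scale, SE 1.80, limma adjusted p = 0.720). PTBP3 had 0.682, 0.185 and 15.7 against 63.4, 30.3 and 18.9. LDHA, lactate dehydrogenase A, had 11.9, 0.833 and 16.8 against 135.0, 32.9 and 25. DDIT4, a stress-induced inhibitor of mTORC1, had 18.4, 32.2 and 21.8 against 199.3, 47.3 and 133.0. MST1R, the receptor tyrosine kinase RON, had 0 in each shNC library against 11.2, 8.01 and 3.02. The peaks of BCAP31 (-4.85), LDHA (-4.61), DDIT4 (-5.17) and MST1R (-4.17) were negative, and that of PTBP3 was positive (1.95). The limma adjusted p was 0.754 for PTBP3, LDHA, DDIT4 and MST1R.

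The 10 most abundant hosts were above 0 in all 6 inputs. ACTG1, the most abundant, had 1324, 917 and 942 FPKM in shNC and 1237, 1034 and 1603 in the shNAT10-labelled libraries, with overlap, and its peak was near the 3′ end with a fold of 3.31 (change -1.91, FDR 1e-158; chr17:81509971-81510150). TMSB10, an actin-sequestering thymosin, had 304.5, 723.7 and 471.8 against 893.7, 641.9 and 1431, with overlap, and a change of -0.53. RPS19 had 255.8, 347.4 and 157.5 against 459.8, 414.1 and 403.2, without overlap (log2 difference 0.82, SE 0.75, limma adjusted p = 0.754). TUBB, a beta-tubulin, had 104.6, 145.8 and 203.8 against 521.2, 219.4 and 326.1, without overlap, and a change of -3.40. Of the 10 most abundant hosts, DNAJB1 and CNBP (5.81), a nucleic acid binding protein, had positive peaks, and the other 8 had negative peaks: ACTG1, TMSB10, RPS19, TUBB, EZR, the mitochondrial ribosome component GADD45GIP1 (-3.68), the autophagy receptor SQSTM1 (-2.20) and the RNA polymerase II subunit POLR2L (-6.50). CNBP had 131.8, 52.6 and 94.8 FPKM in shNC and 366.0, 153.1 and 8.23 in the shNAT10-labelled libraries, and its shNAT10-labelled library replicate 3 lay below all others.

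The 8 hosts with the highest folds differed in input level, and IPO9, NAV1, PGPEP1 and ATRX were low. IPO9 had 0.248, 0.230 and 0.0245 FPKM in shNC, from 10, 9 and 1 recovered fragments, and 0.121, 1.96 and 7.36 in the shNAT10-labelled libraries. NAV1 had 0.0395, 0 and 0 against 0, 4.70 and 2.19. PGPEP1 was above 0 in 1 library only, at 2.33. ATRX had 7.96, 0 and 3.34 against 0.0746, 0 and 0.0865. SET and RPS29 were higher but uneven, SET at 4.48, 36.3 and 40.0 against 6.94, 73.9 and 0, and RPS29 at 21.7, 33.0 and 24.0 against 366.3, 1.44 and 1.03. MYH11 had 10.8, 6.98 and 6.63 against 0, 4.64 and 13.6, and HNRNPA3 1.27, 20.4 and 36.0 against 37.0, 8.30 and 58.7. In each of these 8 genes the groups overlapped, and none of the 7 tested passed (PGPEP1 was under the filter).

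**Figure D5:**
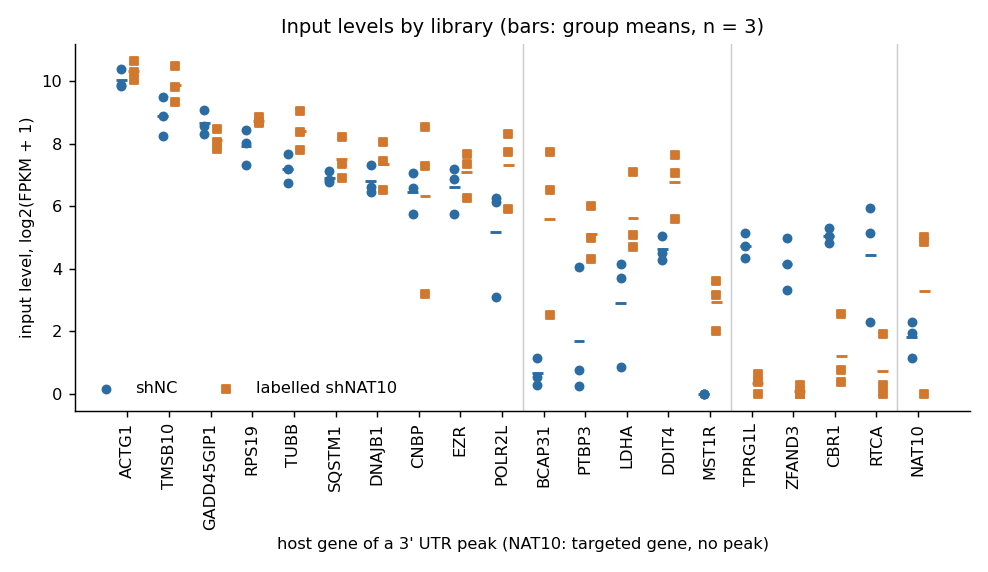
Input level, log2(FPKM + 1) (vertical axis), of 19 host genes of 3' UTR peaks and of NAT10 (horizontal axis) in 3 shNC libraries (circles) and 3 shNAT10-labelled libraries (squares), with bars at the group means; from the left, the 10 most abundant hosts, 5 higher and 4 lower hosts whose groups do not overlap, and NAT10. MST1R is at 0 in every shNC library, and NAT10 is above all shNC libraries in 2 of 3 shNAT10-labelled libraries.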

How the data were processed

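Levels came from the authors' deposited gene table in FPKM for 6 input libraries; the pulled-down libraries were not analysed here per library. Peak values came from the authors' deposited table of differential peaks: fold enrichment (a ratio), log2 fold change, the p-value of the peak call and scores that are log10 of p or FDR, per the file headers. The submitters' processing notes list HISAT2 2.1.0, HOMER 4.10.4 and cutadapt 2.5 without their use; sources used here do not state the counting tool, peak caller, pooling or annotation release. The notes name a human and a mouse build, and positions were read as GRCh38, counted from 1. There were 0 unmapped per-sample columns.

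Inputs were compared by limma 3.58.1 in R 4.3.3 (lmFit, eBayes with trend) after taking log2(FPKM + 1). Genes needed a mean level of 1 FPKM or more. Differences run as shNAT10 minus shNC, with Benjamini-Hochberg adjustment over all tested genes and a threshold of 0.05. The trend draws each SE toward genes of like level. Whole fragments were recovered from FPKM with scales set by 13 mitochondrial mRNAs, within 0.001 fragments, and served only for depth and fragment numbers. All 15014 genes above 0 came out whole, which checks little, since lengths were fitted to that end. Counts from PCR copies are not independent molecules. The limma fit and the fragment recovery were each tested on simulated data. The limma simulation gave every gene the same spread, taken from genes of higher level. It therefore does not show what the fit could detect in hosts with uneven levels. Other tools were Python 3.11.15, pandas 2.3.3 and scipy 1.17.1.

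Peaks were matched to RefSeq GRCh38.p14 by symbol (491 of 503, 97.6%), and overlap meant at least 1 base on a strand. Some items that the naming rule picked are not reported here. The members and the 18 gene lists were chosen with earlier results of these data known. Peaks named by rule had the 10 largest folds, the 10 most negative and 10 most positive changes, the 5 highest site numbers or the 5 greatest lengths. Genes named by rule also had several 3' UTR peaks, peaks of both signs, the 10 highest input levels, or the 5 smallest p per direction without overlap, or led a list. SRPRA, EXOC3, COG8, SUN1, SLC1A5, the overlapping pairs, further members of lists and further genes with several peaks were named after their values were seen. The numbers of the replicates paired nothing: same-numbered libraries deviated from their group means with correlations of 0.0012, -0.0214 and 0.0146. Alternatives were the pseudocount, the filter, the scaling, the replicate block, each library left out, and, for peaks, FDR, fold, overlap, biotype and number of blocks.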

Additional observations from a re-analysis of the deposited data

How the results depend on the processing

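Host genes passing in input numbered 0 in the main fit and in all 12 alternatives, with 6 to 13 at an unadjusted limma p under 0.05. Genes passing overall numbered 20, 10 with a mean FPKM of at least 5, 0 without the filter (limma; 340 at an unadjusted p under 0.05), and 1 to 34 with a replicate left out: 1 without any shNC replicate, 12 without shNAT10 replicate 1 and 34 without shNAT10 replicate 2. With the replicate block in the fit 21 genes and 0 hosts passed, and the block changed no call of a host. The median input difference of hosts, -0.47, was -0.80 on the TPM scale, -0.81 with a pseudocount of 0.1, -0.32 without the filter, -0.29 with a mean FPKM of at least 5, 0.0061 after quantile normalization, and -0.65 to -0.49 with a replicate left out, so its size and sign rest on the scaling. Under quantile normalization the median of all genes was -0.08. NAT10 stayed above 0, from 0.62 to 3.13 with a replicate left out. The median deposited fold, 15.8, was 27.5 for peaks with a fold of at least 5, by construction, and 12.8 at an FDR under 0.01. The negative share was 54.3% at a fold of at least 5. Keeping 1 peak per overlap, protein-coding hosts, or 1-block peaks (chosen after seeing the data) moved no peak result by more than its interval.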
